A study of Mus musculus with 8 samples.

Results

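The epithelial sodium channel and the genes of the aldosterone response that set its abundance were followed in sorted colonic epithelial cells of mice carrying a mutant or the wild-type strain of *Bacteroides thetaiotaomicron*. The 9 genes were *Scnn1a*, *Scnn1b*, *Scnn1g*, *Sgk1*, *Nr3c2*, *Hsd11b2*, *Fxyd4*, *Atp1b1* and *Nedd4l*. Every probe set annotated to exactly 1 of these symbols was taken, which gave 18 probe sets of the 45037 on the array that are not controls, and 9 of the 18193 genes with such a probe set. *Atp1b1* had 5 probe sets, *Nedd4l* had 6 and the other 7 genes had 1 each.

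1 group of male mice carried BTDMAFF (BTΔMAFF in the study), a strain that lacks the mucus-associated functional factor genes, and the other group, also male, carried the wild-type strain, BTWT. Both groups were wild-type C57BL/6 mice kept under specific pathogen-free conditions. Metronidazole and ciprofloxacin were given to deplete their own Bacteroidales before colonization at 8 weeks of age. Both groups were sampled at 12 weeks of age, 4 weeks after colonization. Each group held 4 mice with 1 array per mouse, and the sources used here do not say which mice shared a cage. Live cells without the leukocyte marker CD45 and with the epithelial marker EpCAM were sorted from the colon, their RNA was amplified, and biotin-labelled material was hybridized to an Affymetrix mouse genome array.

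The channel is built from an alpha, a beta and a gamma subunit, encoded by *Scnn1a*, *Scnn1b* and *Scnn1g*, and lets sodium enter the absorptive cells of the distal colon from the lumen, while the sodium pump moves it out on the blood side. Aldosterone acts through the mineralocorticoid receptor, encoded by *Nr3c2*, and induces the kinase SGK1, which restrains the ubiquitin ligase NEDD4L that would otherwise take the channel off the membrane. The dehydrogenase encoded by *Hsd11b2* inactivates glucocorticoids, which would occupy the same receptor, and FXYD4, also called CHIF, is a corticosteroid-induced partner of the sodium pump.

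The deposited values were log2 values from which each probe set's median over the 8 arrays had been taken, so a value of 0 is the middle of the 8 mice for that probe set. The values therefore hold no absolute level and cannot show whether a gene was above background, and levels of different genes cannot be compared. Differences are BTDMAFF minus BTWT on the log2 scale. Because every probe set was centred on 8 arrays, its middle values in rank lie at equal distances on either side of 0.

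Among the 20460 probe sets whose SD over the 8 arrays was under 0.1, 7833 (38.3%) ranked the 8 arrays in 1 identical order, and the median of these 20460 probe sets ranged from -0.0309 in BTDMAFF replicate 3 to 0.0498 in BTDMAFF replicate 4. This median in each array, taken over the probe sets of little variation, is called the offset pattern here. Shares are also given for the 24577 probe sets with an SD of at least 0.1. BTDMAFF replicate 4 and BTWT replicate 2 lay far from the rest in a principal component analysis, where component 1 (29.4% of the variance) scored that BTDMAFF array at 47.0 and that BTWT array at 58.1, against -36.8 to -6.39 for the other 6. With limma, 0 of 45037 probe sets (0%) passed an adjusted p of 0.05, and 2295 (5.10%) were under 0.05 before adjustment.

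Of the 18 probe sets of the 9 genes, 0 passed the adjusted threshold and 3 were under 0.05 before adjustment, all higher in BTDMAFF, where 2.86% of all probe sets were called in that direction. The 3 were those of *Scnn1a*, *Fxyd4* and *Nr3c2*. Among probe sets with an SD of at least 0.1, 9.14% were called in either direction. The BTDMAFF and BTWT values did not overlap in 4 of the 18 probe sets, against 2.83% of all probe sets and 5.04% of those with an SD of at least 0.1. *Fxyd4* alone was called at a fold change over 2 with an unadjusted p under 0.05, as were 0.548% of all probe sets. Differences were positive in 13 of the 18 probe sets and negative in 5, with a median of 0.11, against -0.02 over all probe sets. Since no p passed adjustment, "higher" and "lower" below rest on unadjusted tests.

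**Figure D1:**
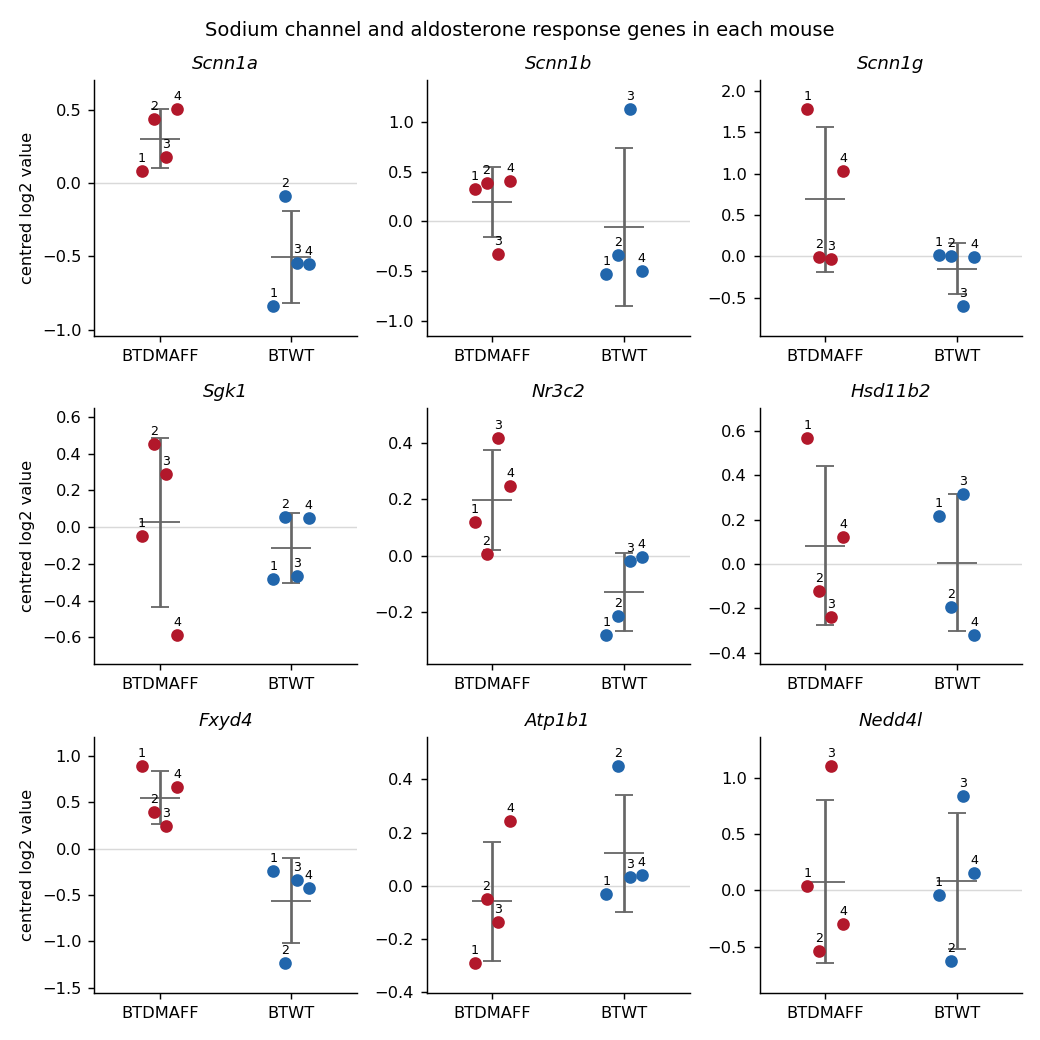
Centred log2 value of the 9 genes in each mouse (y axis), BTDMAFF in red on the left and BTWT in blue on the right, for each gene's most variable probe set; numbers are replicate numbers, the long tick is the group mean and the bar is ± 1 SD (n = 4 mice each). The groups are separated for *Scnn1a*, *Nr3c2* and *Fxyd4*, by only 0.012 for *Nr3c2*, and overlap for the other 6 genes.

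Upstream sequences were searched for 2 motifs, a corticosteroid receptor hexamer and the E-box of clock factors. Those of *Fxyd4* and *Nr3c2*, whose groups were separated, and of *Sgk1*, whose groups overlapped, are shown. They come from RefSeq on GRCm38.p6, and 6 of the 9 genes had an entry that was used, while *Scnn1a*, also separated, was not among them. The bases from 250 to 1 before the annotated start of *Fxyd4* (chr6:117937336-117937585, minus strand) and of *Nr3c2* (chr8:76902080-76902329, plus strand) are printed 5′ to 3′ with each CG dinucleotide in capitals. The bases from 250 to 151 before 1 of the 6 annotated starts of *Sgk1* (chr10:21993640-21993739, plus strand) carry in capitals the corticosteroid receptor hexamer TGTTCT, read on either strand as TGTTCT or AGAACA, and the E-box CACGTG.
Fxyd4: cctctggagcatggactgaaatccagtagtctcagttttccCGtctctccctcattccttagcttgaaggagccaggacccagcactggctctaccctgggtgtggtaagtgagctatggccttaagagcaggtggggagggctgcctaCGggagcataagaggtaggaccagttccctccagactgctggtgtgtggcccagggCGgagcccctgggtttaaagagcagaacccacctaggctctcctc
Nr3c2: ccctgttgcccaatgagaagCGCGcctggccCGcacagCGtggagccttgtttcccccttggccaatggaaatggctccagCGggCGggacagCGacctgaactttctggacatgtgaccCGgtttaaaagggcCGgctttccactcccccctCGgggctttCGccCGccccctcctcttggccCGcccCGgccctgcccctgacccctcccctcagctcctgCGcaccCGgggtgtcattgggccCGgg
Sgk1: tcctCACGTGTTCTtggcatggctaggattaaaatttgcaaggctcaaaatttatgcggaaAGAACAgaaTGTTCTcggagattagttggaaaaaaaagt

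The *Fxyd4* window held 3 CG dinucleotides and 58.0% G and C, and the *Nr3c2* window held 17 and 68.4%, against medians of 6 and 52.4% over 32851 promoter windows of the same length. Neither window held the hexamer on either strand, which 16.1% of all windows held, or the E-box, which 6.02% held. The *Sgk1* window held 3 hexamers, starting 242, 189 and 180 bases before the start, and an E-box starting 246 bases before it that overlaps the outermost hexamer. The other 2 hexamers together form the palindrome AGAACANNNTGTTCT, a search added after the sequences had been seen, which was present in 3 of the 32851 windows (0.00913%). This was the only one of the 6 *Sgk1* windows with an E-box or the palindrome: of the other 5, 2 held 1 hexamer each and 3 held none. The windows of *Scnn1b*, *Scnn1g* and *Atp1b1* held none of these motifs. A match to these letters is a description of the sequence and was not tested for binding.

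*Scnn1a*, the alpha subunit that the channel needs to conduct, was higher in the BTDMAFF mice. Its values were 0.09, 0.44, 0.18 and 0.51 in BTDMAFF replicates 1 to 4, against -0.84, -0.09, -0.54 and -0.55 in BTWT replicates 1 to 4. All 4 BTDMAFF mice lay above all 4 BTWT mice, with BTDMAFF replicate 1 and BTWT replicate 2 the closest, 0.17 apart. The difference was 0.81 ± 0.17 (SE; 95% interval 0.40 to 1.22), a 1.75-fold higher value (1.32 to 2.32), with an unadjusted p of 0.00227 and an adjusted p of 0.418 from limma. Leaving out each array in turn gave 0.70 to 0.95.

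*Scnn1b*, the beta subunit, was not separated between the groups. Its values were 0.33, 0.38, -0.33 and 0.41 in BTDMAFF mice, against -0.53, -0.34, 1.13 and -0.50 in BTWT mice. In each group replicate 3 ran against the other 3 mice, the BTDMAFF one low and the BTWT one the highest of all 8. The difference was 0.26 ± 0.40 (SE; -0.69 to 1.21) with an unadjusted p of 0.543 from limma. With each array left out in turn it ranged from 0.10 to 0.65. It was 0.10 without BTWT replicate 1 (unadjusted p = 0.827), 0.11 without BTWT replicate 4 (0.810) and 0.65 without BTWT replicate 3 (0.0157).

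*Scnn1g*, the gamma subunit, had the widest spread of the 9 genes, with an SD of 0.756 over the 8 arrays. Its values were 1.78, -0.005, -0.03 and 1.03 in BTDMAFF mice, against 0.02, 0.005, -0.61 and -0.008 in BTWT mice. BTDMAFF replicates 1 and 4 were far above every BTWT mouse, while BTDMAFF replicates 2 and 3 lay among the BTWT mice. The difference was 0.84 ± 0.43 (SE; -0.17 to 1.86), as large as that of *Scnn1a* but with an unadjusted p of 0.0907 from limma. With each array left out in turn it ranged from 0.48 to 1.08. It was smallest without BTDMAFF replicate 1 (0.48, unadjusted p = 0.176), and its unadjusted p in limma was under 0.05 only without BTDMAFF replicate 2 (1.07, unadjusted p = 0.0472) or BTDMAFF replicate 3 (1.08, unadjusted p = 0.0446).

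The 3 subunits were thus positive in difference but were carried by different mice. BTWT replicate 3 was the highest of all 8 for *Scnn1b* and the lowest of all 8 for *Scnn1g*. Over the 8 arrays Pearson's r between *Scnn1b* and *Scnn1g* was 0.06 and Spearman's rho -0.14 (exact permutation p = 0.867 and 0.752; adjusted p = 0.925 and 0.977), and r was 0.64 without the 2 mice farthest from the median of *Scnn1b*. Of the 36 pairs among the 9 genes, 0 had an unadjusted p under 0.05 for Pearson's r in an exact permutation test, and the lowest adjusted p was 0.775. For Spearman's rho 1 pair did, *Scnn1a* with *Nr3c2* (rho = 0.79, exact permutation p = 0.0279, adjusted p = 0.735), both of which were separated between the groups.

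**Figure D2:**
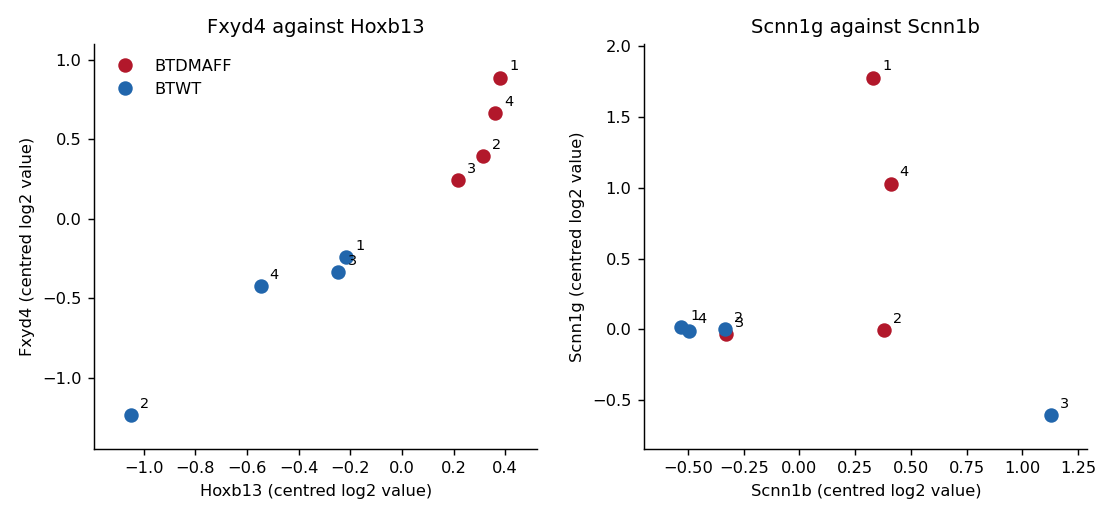
Centred log2 values by mouse, *Fxyd4* (y axis) against the distal Hox gene *Hoxb13* (x axis) on the left, and *Scnn1g* (y axis) against *Scnn1b* (x axis) on the right; points are mice, BTDMAFF in red and BTWT in blue, with replicate numbers. *Fxyd4* and *Hoxb13* placed the 8 mice in the same order, whereas BTWT replicate 3 was the highest for *Scnn1b* at 1.13 and the lowest for *Scnn1g* at -0.61.

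*Nr3c2*, the mineralocorticoid receptor, was slightly higher in BTDMAFF mice. Its values were 0.12, 0.006, 0.42 and 0.25 in BTDMAFF mice, against -0.28, -0.22, -0.02 and -0.006 in BTWT mice. The groups did not overlap, but BTDMAFF replicate 2 and BTWT replicate 4 were only 0.012 apart. The difference was 0.33 ± 0.11 (SE; 0.08 to 0.58), 1.26-fold, with an unadjusted p of 0.0169 and an adjusted p of 0.780 from limma. The call was lost without the 2 arrays that stood apart, where the difference was 0.28 (unadjusted p = 0.101), and with limma's array weights, where it was 0.16 (unadjusted p = 0.136).

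*Hsd11b2*, which keeps glucocorticoids off that receptor, did not differ beyond its spread. Its values were 0.57, -0.12, -0.24 and 0.12 in BTDMAFF mice, against 0.22, -0.19, 0.31 and -0.32 in BTWT mice. The groups overlapped throughout, and the difference was 0.08 ± 0.22 (SE; -0.44 to 0.59) with an unadjusted p of 0.735 from limma.

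*Sgk1*, the aldosterone-induced kinase, was 0.14 ± 0.23 higher in mean (SE; -0.41 to 0.68) with an unadjusted p of 0.568 from limma. Its values were -0.05, 0.45, 0.29 and -0.59 in BTDMAFF mice, against -0.29, 0.06, -0.27 and 0.05 in BTWT mice. The BTDMAFF mice held both the highest and the lowest of the 8 values, and the lowest was BTDMAFF replicate 4, 1 of the 2 arrays that stood apart. With array weights, which gave that array the weight 0.120, the difference was 0.53 (unadjusted p = 0.00735). With weights estimated on probe sets of SD of at least 0.1, which gave it 0.369, the difference was 0.36 (unadjusted p = 0.0839).

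*Fxyd4* had the largest difference of the 9 genes. Its values were 0.89, 0.39, 0.24 and 0.66 in BTDMAFF mice, against -0.24, -1.24, -0.34 and -0.42 in BTWT mice. The groups were 0.49 apart at the nearest pair, BTDMAFF replicate 3 and BTWT replicate 1, and BTWT replicate 2, an array that stood apart, was the lowest by a wide margin. The difference was 1.11 ± 0.25 (SE; 0.52 to 1.70), 2.15-fold (1.43 to 3.24), with an unadjusted p of 0.00299 and an adjusted p of 0.454 from limma. Without BTWT replicate 2 it was 0.88 with an unadjusted p of 0.00147. For *Scnn1a*, *Fxyd4* and *Nr3c2* the exact permutation test of 4 against 4 mice gave 0.0286, two-sided, the smallest p that this design allows. It gave the same for *Nedd4l* 1457374_at, which was lower in BTDMAFF. Any probe set whose groups do not overlap gives this p, so it adds nothing to the separation.

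*Atp1b1*, the beta subunit of the sodium pump, had 3 probe sets with a positive difference and 2 with a negative one, and 0 of its 5 probe sets was under 0.05 before adjustment. The probe set 1439036_a_at, with the largest SD, read -0.29, -0.05, -0.14 and 0.24 in BTDMAFF mice, against -0.03, 0.45, 0.03 and 0.04 in BTWT mice, a difference of -0.18 (-0.53 to 0.16; unadjusted p = 0.253, limma). The other probe sets lay between -0.01 and 0.13, and the one nearest to the threshold was 1423890_x_at at 0.13 with an unadjusted p of 0.0612. That probe set passed without BTDMAFF replicate 4 (0.16, unadjusted p = 0.0244 in limma) or BTWT replicate 4 (0.15, unadjusted p = 0.0430). The flattest, 1455949_at, had an SD of 0.0217 and a correlation of 0.99 over the 8 arrays with the offset pattern shared by the probe sets of little variation. The corresponding correlation was 0.85 for 1439036_a_at, whose highest arrays in each group were the 2 that stood apart. For 1423890_x_at it was -0.86. The part of the offset pattern in the differences of these probe sets was not tested.

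*Nedd4l*, the ligase that removes the channel, had 3 positive and 3 negative probe sets. The most variable, 1441305_at, read 0.04, -0.54, 1.11 and -0.30 in BTDMAFF mice, against -0.04, -0.63, 0.84 and 0.15 in BTWT mice, with replicate 3 the highest in both groups and a difference of -0.003 (-1.04 to 1.03). The probe set 1457374_at read -0.19, -0.01, -0.43 and -0.03 in BTDMAFF mice, against 0.11, 0.54, 0.01 and 0.03 in BTWT mice. All BTDMAFF mice were below all BTWT mice there, with a difference of -0.34 (-0.68 to 0.005; unadjusted p = 0.0527, limma), and this probe set correlated at 0.74 with the offset pattern, whose part was not tested. In the other direction, 1437400_at was 0.28 higher in mean (unadjusted p = 0.0984, limma), from BTDMAFF replicates 3 and 4 at 0.49 and 0.56, while the other 6 mice lay between -0.09 and 0.05. Leaving out 1 array brought a *Nedd4l* probe set under 0.05 in 4 cases, in both directions: 1437400_at at 0.37 without BTDMAFF replicate 1 or 2, 1423269_a_at at -0.27 without BTDMAFF replicate 3 and 1457374_at at -0.39 without BTWT replicate 3. Probe sets of 1 gene share their RNA and are not replicates of each other.

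**Figure D3:**
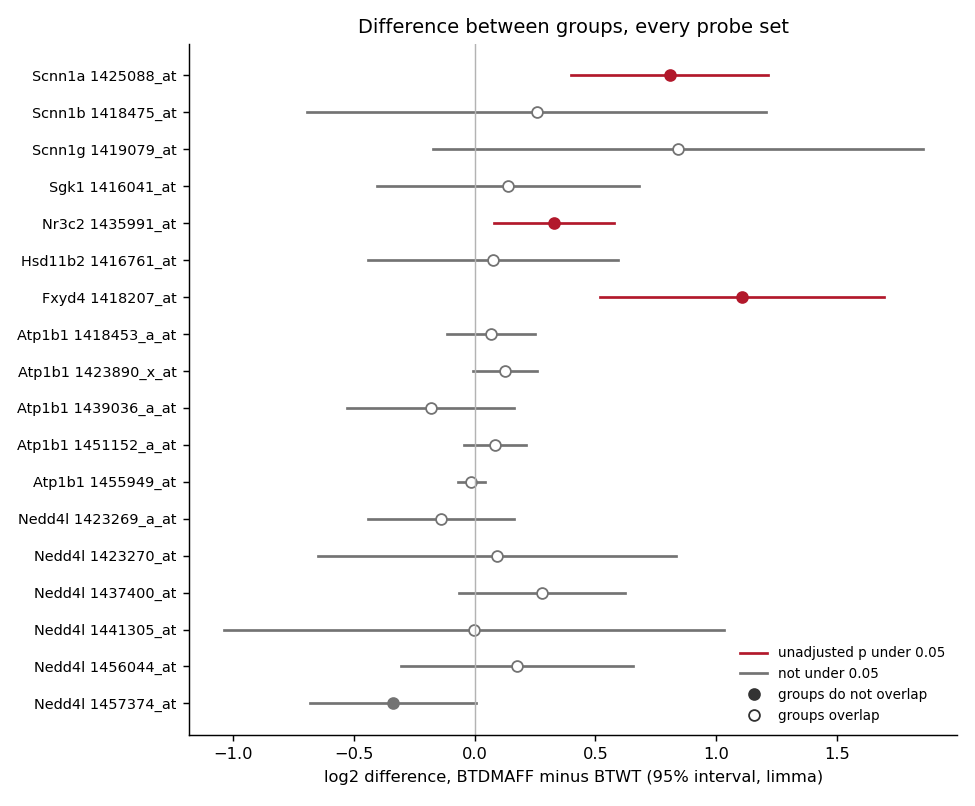
Log2 difference, BTDMAFF minus BTWT, with its 95% interval from limma (x axis) for each of the 18 probe sets (y axis, gene and probe set). Red marks an unadjusted p under 0.05 and a filled point marks groups that do not overlap; the 3 red probe sets are those of *Scnn1a*, *Nr3c2* and *Fxyd4*, and *Nedd4l* 1457374_at is the filled one on the negative side.

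*Scnn1a* and *Fxyd4* kept their direction and an unadjusted p under 0.05 with every array left out in turn, from 0.88 to 1.21 for *Fxyd4*. *Nr3c2* did so too, from 0.26 to 0.39. *Scnn1b*, *Scnn1g* and *Atp1b1* kept their sign, and *Sgk1*, *Hsd11b2* and *Nedd4l* changed sign with at least 1 array left out.

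**Figure D4:**
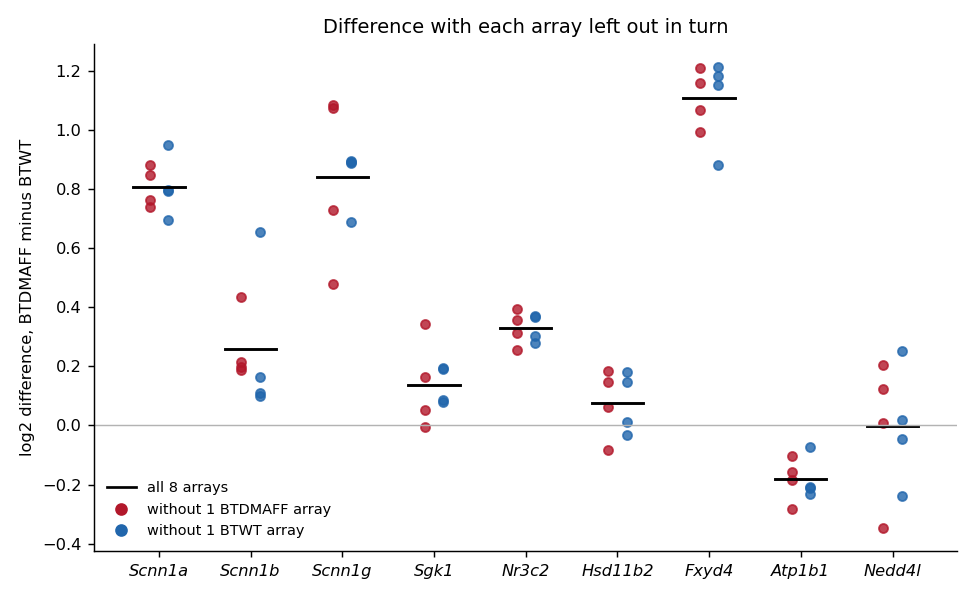
Log2 difference, BTDMAFF minus BTWT (y axis), of the 9 genes (x axis) with all 8 arrays (black line) and with 1 BTDMAFF array (red points) or 1 BTWT array (blue points) left out. *Fxyd4* stays between 0.88 and 1.21 and *Scnn1a* between 0.70 and 0.95, while *Nedd4l* spreads from -0.35 to 0.25.

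Around these genes, 6 lists of 68 genes were examined, of which 58 were measured, 1 probe set per gene. At an unadjusted p under 0.05, 6 were higher in BTDMAFF and 2 lower, where 3.37% of all genes were higher and 2.35% lower, and 0 passed adjustment. The genes below had adjusted p values from 0.207 upward in limma.

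The list of corticosteroid-induced genes held 11 measured genes, of which 3 were higher, 0 were lower and 8 did not pass, with a median difference of 0.26 against -0.02 over all genes. *Per1*, a corticosteroid-induced clock repressor, read 1.67, 1.35, 1.88 and 0.64 in BTDMAFF mice, against -0.68, -0.70, -1.78 and -0.64 in BTWT mice. This was a difference of 2.33 ± 0.36 (SE), 5.04-fold, with an unadjusted p of 3.35e-04 and no overlap. *Usp2*, a deubiquitinase induced by aldosterone in kidney cells, was 1.30 higher (unadjusted p = 0.00587), although BTDMAFF replicate 4 at -0.02 lay below BTWT replicate 4 at 0.02.

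*Fkbp5*, a co-chaperone of the corticosteroid receptors and a sensitive target of them, read 0.14, 0.23, 0.03 and 0.28 in BTDMAFF mice, against -0.92, -0.29, -1.28 and -0.03 in BTWT mice. The groups did not overlap, and the difference was 0.80 ± 0.27 (SE), 1.74-fold, with an unadjusted p of 0.0210. Only 2 of the 3 *Fkbp5* probe sets had a positive difference. *Tsc22d3* (GILZ), another classic target, read 0.15 higher in mean with an unadjusted p of 0.709, and *Ndrg2* was -0.31 (unadjusted p = 0.120). *Per1* also belongs to the circadian clock, in which 6 of 9 listed genes were higher in BTDMAFF. The other 3, *Arntl*, *Clock* and *Npas2*, had negative differences of -1.38, -0.57 and -0.47 (unadjusted p = 0.0910, 0.120 and 0.0510, limma). Only 1 of the 2 *Npas2* probe sets had that sign. The list's mean joins both directions and did not overlap between the groups, at 0.40 to 0.91 in BTDMAFF mice against -0.84 to -0.32 in BTWT mice. Whether the time of sampling was the same for all mice is not given in the sources used here, and the part of the clock in these values was not tested.

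Among the receptor partners, 1 of 6 measured genes was higher and 0 lower. It was the coactivator *Ncoa1*, at 0.45 (unadjusted p = 0.0432), while the co-chaperones *Fkbp4* and *Stip1* stood at -0.46 (0.159) and 0.23 (0.334). Only 2 of the 3 *Ncoa1* probe sets had a positive difference. The glucocorticoid receptor, *Nr3c1*, was at 0.12 with an unadjusted p of 0.724.

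Of 14 genes on the SGK1, NEDD4L and WNK kinase axis, 1 was higher and 0 lower. *Mapkap1*, a subunit of the kinase complex that phosphorylates SGK1, read 0.50, 0.11, 0.32 and 0.06 in BTDMAFF mice, against -0.31, -0.31, -0.27 and -0.06 in BTWT mice, a difference of 0.48 (unadjusted p = 0.00307). Another subunit of that complex, *Rictor*, was at -0.66 with an unadjusted p of 0.131, set by BTDMAFF replicate 3 at -1.50. *Sgk2* was at 0.46 (0.0665) and *Nedd4* at 0.40 (0.0934), but only 1 of the 3 *Nedd4* probe sets had a positive difference.

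The proteases that cleave the channel and their inhibitors held 7 measured genes, and 0 passed in either direction. The protease inhibitor *Spint1* came nearest at 0.29 (unadjusted p = 0.0534), the channel-activating protease *Prss8* was at -0.30 (0.227), *Furin* at 0.11 (0.111) and *Tmprss4* at 0.16 (0.395).

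Of the 8 measured sodium pump and FXYD genes besides *Fxyd4* and *Atp1b1*, 1 was lower and 0 higher. It was the pump subunit *Atp1b3*, at -0.47 (unadjusted p = 0.0425), with *Fxyd3* at -0.35 (0.232). The 5 genes *Fxyd1*, *Fxyd5*, *Fxyd6*, *Fxyd7* and *Atp1b2* had an SD under 0.1 and followed the offset pattern with correlations from 0.88 to 1.00.

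Of 12 other salt and water transporters, 1 was higher and 1 lower. *Slc26a3*, the chloride-bicarbonate exchanger of surface cells, was 0.48 higher (unadjusted p = 5.75e-04). *Cldn8*, a tight junction protein that is induced by aldosterone in the colon and limits the leak of sodium back to the lumen, read -1.14, -1.56, -2.12 and -0.35 in BTDMAFF mice, against 0.72, 0.55, 0.42 and 0.35 in BTWT mice. All 4 BTDMAFF mice were lower, by 1.80 ± 0.35 (SE) in the mean, 3.48-fold, with an unadjusted p of 0.00140. The sodium-proton exchanger *Slc9a3* was at 0.78 (0.119) and the water channel *Aqp8* at -0.43 (0.103).

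**Figure D5:**
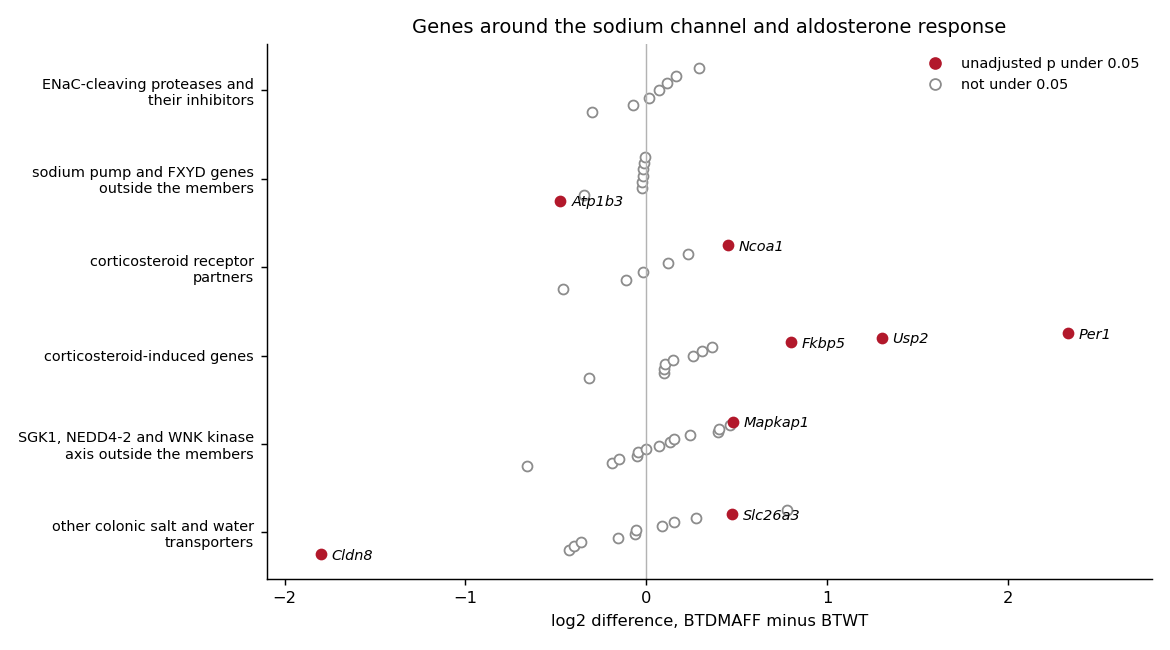
Log2 difference, BTDMAFF minus BTWT (x axis), of the 58 measured genes in 6 lists (y axis); each point is a gene, red with its name where the unadjusted p was under 0.05 in limma. *Per1*, *Usp2* and *Fkbp5* lie on the positive side at 2.33, 1.30 and 0.80, and *Cldn8* lies at -1.80.

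The genes whose values over the 8 arrays were most like those of the channel and response genes were sought among 6927 genes with an SD of at least 0.3. With 8 arrays in 2 groups such correlations are descriptions only, and between 2 and 26 genes reached 0.9 for each of the 6 genes examined. *Fxyd4* was followed most closely by *Hoxb13* (r = 0.97), a Hox gene of the distal colon, which placed the 8 mice in the same order, then by *Best2*, *Spsb1* and *Toe1* (0.94 each). *Scnn1a* was followed by *Edn3* and *Ttyh2* (0.97 each) and by *H1f2* and *Plec* (0.96 each).

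*Scnn1b* and *Scnn1g* had different followers, *Il18bp* (0.93), *Prkd2* (0.91), *Kdelr3* (0.89) and *Rab26os* (0.88) for the beta subunit, and *Ccdc86* (0.98), *Tle4* (0.95), *Cand1* (0.94) and *Mblac2* (0.93) for the gamma subunit. *Sgk1* was followed by *Ppfia3* (0.97), *Atp11a* (0.95), *Mapre3* (0.94) and *Paqr8* (0.93). *Nr3c2* was followed by *Gphn* and *Prkar2a* (0.96 each) and by *Cobl* and *Apba3* (0.95 each).

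Markers of position and of other cells moved beside these genes. *Hoxb13* read 0.38, 0.31, 0.22 and 0.36 in BTDMAFF mice, against -0.22, -1.05, -0.25 and -0.55 in BTWT mice, a difference of 0.83 with an unadjusted p of 0.00259 and no overlap. *Hoxa13* was also higher, at 0.77 (0.0138). *Hoxd13* went the other way, at -0.49 (unadjusted p = 0.313, limma), with 2 of its 2 probe sets negative. *Hoxd12* was nearly flat, at -0.03 with an SD of 0.048. Thus 2 of 4 distal Hox genes passed, and the list's mean overlapped, at -0.33 to 0.41 in BTDMAFF mice against -0.38 to 0.05 in BTWT mice. The length of colon that each sample held was not given, and its part in the *Fxyd4* and *Scnn1a* values was not tested.

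All 4 genes of dividing cells were lower in BTDMAFF, with list means of -0.65 to -0.13 against 0.06 to 1.01 in BTWT, and 2 of 6 surface colonocyte genes were higher. Of 6 crypt base genes 5 had a negative difference, with a median of -0.60, and 1 passed, *Ephb3* at -0.70 (unadjusted p = 0.0176). Of 7 epithelial genes 2 were higher, *Vil1* at 0.40 (0.00390) without overlap and *Krt19* at 0.22 (0.0342). Of the goblet cell genes, 2 were higher and 1 lower of 7. In such bulk samples fewer cells of a type and less RNA per cell cannot be told apart. Of 8 measured leukocyte genes and 8 stromal genes 0 passed, but 7 and 4 of them had an SD under 0.1, with leukocyte list means of -0.007 to 0.21 in BTDMAFF mice against -0.01 to 0.03 in BTWT mice, and stromal list means of 0.06 to 0.63 against -0.16 to 0.10. *Csf1r*, a macrophage receptor, was at 1.75 in BTDMAFF replicate 3, and *Col1a1*, a collagen of fibroblasts, was at 2.03 in BTDMAFF replicate 2. Another collagen, *Col3a1*, had a difference of 1.14 (unadjusted p = 0.0523, limma), with that sign in 1 of its 2 probe sets. Of the 8 stromal genes 4 had a positive difference. The part of these cells in the values above was not tested.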

How the data were processed

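Total RNA of sorted live CD45-negative, EpCAM-positive colonic epithelial cells (4 BTDMAFF and 4 BTWT mice) was amplified (NuGen WT Ovation Pico) and measured on Affymetrix mouse genome arrays. The authors used GeneSpring, per the methods, and Affymetrix Expression Console, per the submitters' processing notes. For background correction, summarization, normalization and genome build, the method is not given in the sources used here. Deposited were log2 values centred on each probe set's median over the 8 arrays, so levels and detection are lost, and scale steps before the centring stay unknown. No depth applies to arrays, and 4 mice per group limit the precision. The p-values set each group difference against the spread between mice within the groups. Nothing in the labels says how the mice were housed, so any cage effect shared within a group cannot be told apart from the strain.

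Of 45101 probe sets, 64 controls were left out. Of the rest, 34945 had 1 gene symbol in GEO's platform annotation, 932 several and 9160 none. Groups were compared with limma 3.58.1 (R 4.3.3; lmFit, eBayes) over all 45037 probe sets with Benjamini-Hochberg adjustment, without a block. A gene among many was represented by its probe set of largest SD. The genes named were the 9 genes with every probe set, up to 4 genes of smallest unadjusted p from each of 6 lists plus *Nr3c1*, *Prss8*, *Tsc22d3*, *Per1*, *Usp2* and *Cldn8*, and the 4 genes most correlated with 6 of the 9. An item that the rule also named is not reported here. *Fxyd1*, *Fxyd5*, *Fxyd6*, *Fxyd7*, *Atp1b2*, *Col1a1*, *Col3a1*, *Csf1r*, *Arntl*, *Clock* and *Npas2* were singled out after their values were seen. The genes and lists were chosen with earlier results of these data known. The SD limit of 0.1 was set after the data were seen. On simulated data with the real probe sets' spread (45037 probe sets), 84 of 100 changes of 1.5 and 96 of 100 changes of 3 in log2 units had an adjusted p under 0.05. So did 10 unchanged probe sets. The noise was independent between probe sets, and the changed ones were drawn at random from all, of which 20460 had an SD under 0.1. This recovery therefore need not hold for the 9 genes, whose largest difference was 1.11.

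Alternatives were quantile normalization, array median centring, array weights, a robust prior, the replicate block, each array left out, both arrays that stood apart left out, filters on SD, the methods' t-test, arithmetic means and other choices of probe set. Whether equal replicate numbers pair mice was checked on deviations from the group means: the correlations were 0.39, -0.04, 0.03 and -0.27 for numbers 1 to 4, so the numbers were not taken to pair mice.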

Additional observations from a re-analysis of the deposited data

Results flagged for a closer look

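In 5 of 36 groups of 4 mice (2 groups for each of 18 probe sets), 1 mouse lay farther from the other 3 than Dixon's criterion allows. Chance alone gives such a mouse in about 1 of 20 groups only if the values are normally distributed and the groups independent. The 36 groups are not independent, since they reuse the same arrays and *Atp1b1* and *Nedd4l* have several probe sets each. The share of such groups over all probe sets was not computed. Whether 5 is more than usual on these arrays was therefore not tested. For *Scnn1b*, BTDMAFF replicate 3 was at -0.33, with the other 3 BTDMAFF mice at 0.33 to 0.41, and BTWT replicate 3 was at 1.13, with the other 3 BTWT mice at -0.53 to -0.34. For *Scnn1g*, BTWT replicate 3 was at -0.61, with the others at -0.008 to 0.02. For *Atp1b1*, BTWT replicate 2 was at 0.45 on probe set 1439036_a_at, with the others at -0.03 to 0.04, and BTDMAFF replicate 3 was at 0.16 on probe set 1451152_a_at, where the highest of the others was 0.02. BTWT replicate 3 thus stood apart for both *Scnn1b* and *Scnn1g*, in opposite directions.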

How the results depend on the processing

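*Scnn1a*, *Fxyd4* and *Nr3c2* were called in the comparison of all 8 arrays, and *Scnn1a* and *Fxyd4* kept direction and an unadjusted p under 0.05 in all 18 refits. Adjusted p ranged from 0.0275 to 0.788 for *Scnn1a* (0.0275 with array weights, 0.0701 with weights from probe sets of SD of at least 0.1, and 0.236 on those probe sets without weights), 0.0592 to 0.788 for *Fxyd4* and 0.245 to 0.994 for *Nr3c2*. *Nr3c2* lost its call in 3 refits: array weights, array weights on probe sets of SD of at least 0.1 (0.27, unadjusted p = 0.0809), and leaving out both outlying arrays, where *Atp1b1* 1423890_x_at passed (unadjusted p = 0.0146). The count of 3 called probe sets became 5 with array weights (adding *Sgk1* and *Atp1b1* 1423890_x_at and 1451152_a_at) and 3 to 5 with 1 array left out, 5 without BTDMAFF replicate 2, BTDMAFF replicate 3 or BTWT replicate 3. The replicate block gave 4, adding *Nedd4l* 1457374_at (unadjusted p = 0.0207), and 2 of 8 arrays correlated best with their own number. The 4 probe sets without overlap became 4 to 7 with 1 array left out, 7 without BTDMAFF replicate 4, and 8 without both arrays that stood apart, but without these arrays 42.9% and 45.1% of all probe sets did not overlap, and 18.2% and 21.9% of those of SD of at least 0.1. The 8 called list genes became 24 with array weights, 13 with array weights on probe sets of SD of at least 0.1, and 5 to 10 with 1 array left out (5 without BTWT replicate 1). Array weights called 25.6% of all probe sets, or 12.8% at an SD of at least 0.1. After adjustment, 510 of 45037 and 45 of 24577 probe sets passed with these weights, against 0 of 45037 and 8 of 24577 without weights. Signs turned for genes that were not called: *Hsd11b2* at -0.19 with array weights, -0.037 with those at an SD of at least 0.1, -0.0025 without both arrays and -0.085 to 0.18 with 1 array left out (-0.03 without BTWT replicate 4, -0.085 without BTDMAFF replicate 1); *Scnn1b* at -0.26 with array weights; *Sgk1* at -0.0046 without BTDMAFF replicate 2, in a range of -0.0046 to 0.34 with 1 array left out. *Atp1b1* was at 0.016 with the mean of all its probe sets. *Nedd4l* was at 0.051 with arithmetic means, 0.010 with the mean of all its probe sets, -0.74 with array weights, 0.014 with array median centring and -0.35 to 0.25 with 1 array left out (0.0079, 0.20 and 0.12 without BTDMAFF replicates 1, 2 and 4, 0.25 and 0.020 without BTWT replicates 3 and 4). The causes were not tested.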
